A study of Mus musculus with 8 samples.

Results

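The Bcl2 family decides in each cell whether the outer membrane of its mitochondria stays closed, and 10 of its genes were followed across murine prostate tumors: Bcl2, Bcl2l1, Mcl1, Bax, Bak1, Bcl2l11, Bbc3, Pmaip1, Bid and Bad. They were chosen by gene symbol, 10 of the 38115 genes counted, and all 10 passed the filter on low counts in every fit. RNA sequencing counts were compared in 8 tumors grown from Myc-CaP, a prostate cancer cell line taken from a transgenic mouse in which MYC is driven by a prostate-specific promoter, so that all 8 tumors carry this transgene. Androgen sensitive cells (Myc-CaP/AS) or castrate resistant cells (Myc-CaP/CR) had been placed in the anterior prostate of male FVB mice, which were intact or castrated beforehand, and the labels do not tie each tumor to a host, an age or a metastatic site. Each phenotype was 1 cell line with 2 primary and 2 metastatic tumors, called AS1, AS2, CR1 and CR2 within each tumor type. The metastases are labelled as matched, but the primary tumor of each is not given, so equal names carry no pairing. Phenotype, injected line and castration of the host cannot be told apart in this design.

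Apoptosis of the mitochondrial pathway depends on 3 kinds of Bcl2 family protein. Bcl2, Bcl2l1 (Bcl-xL) and Mcl1 hold the membrane closed, Bax and Bak1 form the pores that release cytochrome c, and the BH3-only proteins Bcl2l11 (Bim), Bbc3 (Puma), Pmaip1 (Noxa), Bid and Bad carry stress signals to both. Bim and Puma bind all the anti-apoptotic proteins, Noxa mainly Mcl1, and Bad mainly Bcl2 and Bcl-xL. In prostate cancer, high BCL2 is known from tumors that grow after androgen withdrawal. The proteins are also set by phosphorylation, cleavage and turnover, and Mcl1 is short-lived, so transcript levels describe 1 layer of this control.

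The genes lie apart in the mm10 (GRCm38) genome, and all are annotated as protein coding in GENCODE M21. Bcl2 is at chr1:106538178-106714274 on the minus strand, Bcl2l1 at chr2:152780668-152831728 (minus), Mcl1 at chr3:95658788-95663176 (plus), Bax at chr7:45461697-45466898 (minus) and Bak1 at chr17:27019810-27029009 (minus). Bcl2l11 is at chr2:128126038-128162547 (plus), Bbc3 at chr7:16308393-16318205 (plus), Bid at chr6:120891930-120916853 (minus) and Bad at chr19:6941861-6951899 (plus). Promoters of 9 of the 10 genes were read from RefSeq (GRCm38.p6, 250 bases before to 50 after the start). The promoters of Bcl2, Bad and Bax are shown because they were the only members called in the comparison of phenotypes under any setting. Capitals mark GC boxes (GGGCGG or its reverse complement, the letters that Sp1 family factors bind) in Bcl2 and Bad, and E-boxes (CACGTG, the letters that MYC binds with MAX) in Bax. The Bcl2 promoter is chr1:106714241-106714540 read on the minus strand, and its start lies 16 bases from that of GENCODE. The Bad promoter is chr19:6941611-6941910 on the plus strand, and the Bax promoter is chr7:45466849-45467148 on the minus strand.
Bcl2: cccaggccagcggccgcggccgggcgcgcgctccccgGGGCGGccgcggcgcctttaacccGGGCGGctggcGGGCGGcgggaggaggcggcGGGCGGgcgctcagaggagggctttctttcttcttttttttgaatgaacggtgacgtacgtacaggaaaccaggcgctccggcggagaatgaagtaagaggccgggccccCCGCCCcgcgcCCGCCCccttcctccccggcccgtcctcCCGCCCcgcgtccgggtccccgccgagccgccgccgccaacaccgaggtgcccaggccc
Bad: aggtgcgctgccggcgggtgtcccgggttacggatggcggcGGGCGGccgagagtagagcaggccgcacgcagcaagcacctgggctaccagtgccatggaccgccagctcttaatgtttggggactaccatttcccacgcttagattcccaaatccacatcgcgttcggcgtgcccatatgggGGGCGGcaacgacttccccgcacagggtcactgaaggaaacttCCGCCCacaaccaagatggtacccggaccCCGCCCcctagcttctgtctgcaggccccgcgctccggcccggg
Bax: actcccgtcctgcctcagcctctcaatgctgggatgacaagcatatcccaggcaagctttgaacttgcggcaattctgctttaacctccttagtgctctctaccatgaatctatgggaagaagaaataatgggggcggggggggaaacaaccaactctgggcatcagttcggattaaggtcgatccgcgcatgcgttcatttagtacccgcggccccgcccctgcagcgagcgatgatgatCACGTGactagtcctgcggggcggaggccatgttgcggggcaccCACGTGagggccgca

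The Bcl2 promoter holds 7 GC boxes and the Bad promoter 4, and neither holds an E-box. Among the 9 promoters, 7 held at least 1 GC box (Bcl2, Mcl1, Bax, Bcl2l11, Bbc3, Bid and Bad), as did 35.7% of all 32851 RefSeq promoters of this length, both strands searched. Only Bax held an E-box, with 2, against 7.15% of all promoters. AGAACA, the letters of 1 arm of an androgen response element, was in 0 of the 9 and in 19% of all promoters. The decamer bound by 1 dimer of p53 was in Bax alone and in 8.36% of all promoters. No match overlapped a match of another motif, although 2 GC boxes of Bbc3 share 1 base, and a match is a string of letters, not a measured site.

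Total counts ranged from 20905806 to 91886163 per tumor, and the 3 shallowest libraries were castrate resistant. Metastatic CR1 and both CR2 tumors stood apart by Lars2, a mitochondrial leucyl-tRNA synthetase gene, which took 8.53 to 9.54% of their counts and at most 0.14% in the other 5 tumors. Primary CR1 differed from the other CR tumors in its total (76887592) and in its share of mitochondrial genes (4.85%, against 12.9 to 28.3% in the other 7 tumors). The library numbers of the AS and CR tumors come from separate runs of numbers, whose meaning the labels do not give, and they cannot be told apart from phenotype. Between phenotypes, 2081 of 17104 genes tested (12.2%), of which 1028 (6.01%) were lower in CR tumors, had an adjusted p-value under 0.05 by edgeR's quasi-likelihood test with tumor type as a term and Benjamini-Hochberg adjustment, and 4932 (28.8%) had an unadjusted p under 0.05. Each tumor moved this number when it was left out: 881 genes without primary AS1, 481 without metastatic AS1, 695 without primary AS2, 519 without metastatic AS2, 4133 without primary CR1, 745 without metastatic CR1, 1049 without primary CR2 and 1116 without metastatic CR2. Between metastatic and primary tumors, 0 of 17104 genes (0%) passed with edgeR and 0 with DESeq2, and 459 (2.68%) had an unadjusted p under 0.05. Nothing in the labels says that the tumors came from separate animals, so p-values measure at most the spread between these samples. If matched means from the same host, the tumors of a phenotype came from fewer animals than samples. The fits between phenotypes had no term for host, and the SDs given below are likewise over tumors, not animals.

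Epithelial, prostate and other cell type markers were read beside the family. The tumors held little of several markers that define prostate epithelium: Epcam was at most 0.282 CPM (counts scaled to a common library total), Krt18 at most 0.424 and Cdh1 at most 0.613. Pbsn, the prostate probasin gene, was at 0 in 6 tumors and at most 0.548 CPM. Of the 7 epithelial markers 5 were tested and 2 were called higher in CR tumors. Krt19 had 1.16 to 4.71 CPM in AS and 15.8 to 134 CPM in CR tumors (log2 difference 3.66, SE 0.73, edgeR adjusted p = 0.0189), a call that held in 5 of 8 fits without 1 tumor and was lost without metastatic AS1, primary AS2 or metastatic AS2. Krt8 had 36.8 to 168 CPM in AS and 260 to 721 CPM in CR tumors (1.85, SE 0.5, edgeR adjusted p = 0.0442), and its call held only without primary CR1 among these 8 fits. The summed level of 6 T cell markers was 0.687 to 1.19 CPM in AS and 0.262 to 0.567 CPM in CR tumors, and of 6 B cell markers 0.541 to 1.05 CPM in CR and 0.581 to 0.979 CPM in AS tumors. Myeloid markers (8 of 9 listed) summed to 221 to 302 CPM in AS and 114 to 236 CPM in CR tumors, endothelial markers (6) to 48.7 to 98.1 and 47.9 to 85.4, and fibroblast markers (7) to 59.5 to 94.8 and 57.9 to 114. The lung list reached at most 0.83 CPM. In the liver list albumin (Alb) was at most 3.08 CPM, while the fibrinogen gene Fgb reached 3710 to 10200 CPM in AS and 89.1 to 1940 CPM in CR tumors (log2 difference -3.98, SE 0.91, edgeR adjusted p = 0.0276). The call of Fgb held in 2 of the 8 fits without 1 tumor, those without primary CR1 or primary CR2, and its adjusted p reached 0.0766 without metastatic CR1. Ttr, the transthyretin gene of the same list, was also called lower in CR tumors (-1.3, SE 0.36, edgeR adjusted p = 0.0498), a call that held only without metastatic AS2 among these 8 fits and was lost with RLE factors, with the other library sizes and without a covariate. Among the immune, endothelial and fibroblast lists 0 genes passed the adjusted test of edgeR between phenotypes, and 2 T cell and 2 endothelial genes had an unadjusted p under 0.05. In bulk tumors fewer cells of a type and less RNA per cell cannot be told apart, and the part of these cells in the results below was not tested.

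To compare the members with each other, CPM of the TMM-scaled library were divided by the merged exon length in kilobases (CPM per kb). This length exceeds that of the longest coding transcript unevenly. It was 3418 against 3418 bases for Mcl1, 4586 against 2568 for Bcl2l1, 8029 against 5036 for Bcl2l11 and 2558 against 1533 for Bad. The order, shares and ratios given below therefore depend on this choice of length. Mcl1 was the most abundant member in every tumor (29.1 to 47 CPM per kb, mean 36.8) and Pmaip1, the gene of its ligand Noxa, was next in every tumor (14.1 to 28, mean 21.6). Bax (4.91 to 10.8, mean 7.9), Bcl2l1 (4.72 to 7.39, mean 6.07) and Bak1 (4.5 to 6.85, mean 5.84) formed a middle group whose ranges overlap. Below them were Bad (1.08 to 5.72, mean 3.69), Bcl2l11 (2 to 4.85, mean 3.4), Bcl2 (2.24 to 4.17, mean 3.14) and Bid (2 to 3.82, mean 2.96), whose ranges overlap too. Bbc3 was lowest in every tumor (0.805 to 1.42, mean 1.02). Thus the ranges of Mcl1 and Pmaip1 stood clear of each other and of the rest, neighbours below them did not differ beyond their spread down to Bid, and the range of Bbc3 met only that of Bad.

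Of the summed per-length level of the 10 genes, Mcl1 made up 34.5 to 48.6% and Pmaip1 16.6 to 33%. The 3 anti-apoptotic genes together took 44.9 to 58.1%, the pore formers Bax and Bak1 12.4 to 17.1%, and the 5 BH3-only genes 28.9 to 42.2%. Bcl2 itself took 3.22 to 4.25% in AS and 2.75 to 3.27% in CR tumors. The sum over all 10 genes was 71.8 CPM per kb in metastatic CR2, the lowest tumor, and 105 in primary CR1, the highest. The ratio of anti-apoptotic to pro-apoptotic transcripts per length was 1.39 and 1.15 in primary AS1 and AS2, and 0.947 and 0.821 in metastatic AS1 and AS2. It was 0.905 and 0.944 in primary CR1 and CR2, and 0.814 and 1.1 in metastatic CR1 and CR2. In AS tumors both primary values lay above both metastatic values, while in CR tumors the metastatic values lay on either side of the primary ones. In the same comparison of AS tumors the levels of 37.2% of single genes did not overlap, in either direction. This ratio was not tested. By phenotype the ratio was 1.08 ± 0.248 in AS and 0.941 ± 0.119 in CR tumors (SD, n = 4 each), with overlapping ranges.

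**Figure D1:**
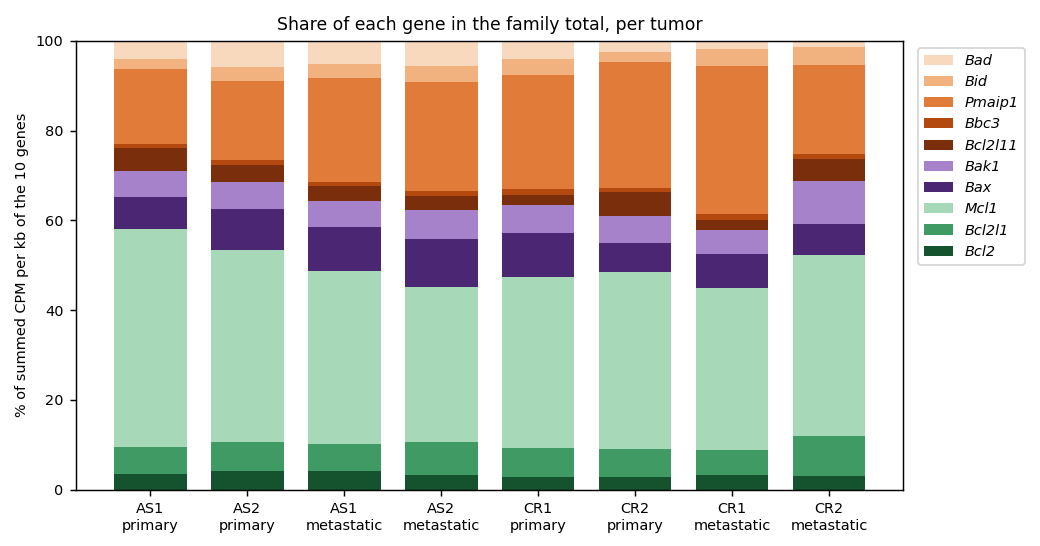
Share (%) of each of the 10 genes in their summed CPM per kb of merged exon length, stacked for each of the 8 tumors with anti-apoptotic genes in green, effectors in purple and BH3-only genes in orange. Mcl1 takes 34.5 to 48.6% and Pmaip1 16.6 to 33% of each bar.

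To ask whether survival and death genes differed between androgen sensitive and castrate resistant tumors, the 4 tumors of each phenotype were compared. By edgeR, 0 of the 10 members had an adjusted p-value under 0.05 (12.2% of all genes tested), and 2, Bcl2 and Bad, had an unadjusted p under 0.05 (28.8% of all genes). DESeq2 called the same 2 genes, where it called 20.7% of all genes. The median log2 difference of the members (CR minus AS) was -0.13, against -0.01 over all genes tested, and their median absolute difference was 0.2, against 0.38. Thus 6 members had lower and 4 had higher fitted levels in CR tumors, and the share of members called was not above that of all genes.

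Bcl2, which guards mitochondria by binding BH3-only proteins and Bax, had 31.2, 38.2, 36 and 29.5 CPM in AS tumors (primary AS1, metastatic AS1, primary AS2, metastatic AS2). In CR tumors, in the same order, it had 26.5, 25.5, 22.3 and 20.5 CPM. Every CR tumor lay below every AS tumor, and by this order alone 10.3% of all genes tested were lower in CR tumors. Primary CR1 was the highest CR tumor, and the CR tumors below it are the libraries with high Lars2 and the lowest totals. The part of these library features in the level of Bcl2 was not tested. The means were 33.7 ± 4.06 CPM in AS and 23.7 ± 2.8 CPM in CR tumors (SD, n = 4 each). The log2 difference was -0.48 with a standard error of 0.15 (0.715-fold). The unadjusted p in the edgeR fit was 0.01, and after Benjamini-Hochberg adjustment it missed the threshold (edgeR adjusted p = 0.0663). With DESeq2 it passed (log2 difference -0.46, adjusted p = 0.0394), and without primary CR1 it passed with edgeR (-0.54, adjusted p = 0.0362, where 23.8% of all genes passed). Over 13 alternatives the difference ranged from -0.58 to -0.41 and the adjusted p from 0.0362 to 0.217. An antisense gene, D630008O14Rik, shares 558 bases of exon with Bcl2, and its own level was 1.76 CPM in AS and 1.21 CPM in CR tumors (means, log2 difference -0.52, edgeR adjusted p = 0.247).

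Bcl2l1, whose long product Bcl-xL guards mitochondria of epithelial and blood cells, had 26.7 to 33.9 CPM in AS and 21.7 to 31.9 CPM in CR tumors. Its highest value was in metastatic AS2 and its lowest in metastatic CR1, and the phenotypes overlapped (log2 difference -0.08, SE 0.17, edgeR adjusted p = 0.797). Mcl1 had 118 to 161 CPM in AS and 99.5 to 137 CPM in CR tumors, with means of 136 ± 18.1 and 115 ± 16.9 CPM (SD, n = 4 each). Its log2 difference of -0.22 (SE 0.13) did not pass (edgeR adjusted p = 0.305). All 3 anti-apoptotic genes therefore had negative estimates, and Bcl2 alone had groups that did not overlap.

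Bax, the cytosolic pore former, had 10.9, 15.2, 13.7 and 17 CPM in AS tumors (primary AS1, metastatic AS1, primary AS2, metastatic AS2) and 16.1, 10.2, 8.84 and 7.73 CPM in CR tumors in the same order. Primary CR1 lay among the AS tumors, and the other 3 CR tumors, which are the 3 libraries with high Lars2 and the lowest totals, lay below all 4 of them. The part of these library features in the level of Bax was not tested. With all 8 tumors the log2 difference was -0.38 (SE 0.26, edgeR adjusted p = 0.357), and without primary CR1 it was -0.67 (adjusted p = 0.0318). Bak1, the pore former that sits in the membrane, was the steadiest of the pair, with 13.5 to 15.4 CPM in AS and 10.8 to 16.5 CPM in CR tumors (log2 difference 0.02, SE 0.18, edgeR adjusted p = 0.952). The ratio of Bax to Bak1 per length was 1.53 ± 0.218 in AS and 1.19 ± 0.377 in CR tumors (SD, n = 4 each), and the ranges overlapped. Bax shares 10.2% and Bak1 11.3% of their read-length windows with other annotated transcripts, mostly of the overlapping genes Gm45808 and Ggnbp1, so part of their counts can depend on how such reads were assigned.

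Bad, the BH3-only gene whose protein is switched off by survival signalling through phosphorylation, had the widest differences of the family. It had 9.77, 13.2, 14.4 and 14.6 CPM in AS tumors (primary AS1, metastatic AS1, primary AS2, metastatic AS2) and 11, 4.16, 5.62 and 2.75 CPM in CR tumors in the same order. Primary CR1 lay above primary AS1, and the other 3 CR tumors lay below every AS tumor. These 3 are again the libraries in which Lars2 took 8.53 to 9.54% of counts and whose totals were lowest, and the part of this in the level of Bad was not tested. Means were 13 ± 2.24 CPM in AS and 5.88 ± 3.6 CPM in CR tumors (SD, n = 4 each), a log2 difference of -1.23 with a standard error of 0.36 (0.425-fold). The unadjusted p in the edgeR fit was 0.00763, and the edgeR adjusted p of 0.0567 missed the threshold. It passed with DESeq2 (adjusted p = 0.00654) and without primary CR1 (-1.61, edgeR adjusted p = 0.00552). Without a filter on low counts it also passed (-1.31, edgeR adjusted p = 8.5e-05, where 9.72% of all genes passed). Bcl2, Mcl1, Bcl2l11 and Pmaip1 all had a standard error of 0.23 without the filter, against 0.15, 0.13, 0.28 and 0.24 with it. That of Krt19 was 0.27, against 0.73. Standard errors without the filter thus hardly followed the spread of each gene. The p of Bad in that fit therefore does not measure its spread between tumors. Over 13 alternatives the difference of Bad stayed between -1.61 and -0.97, with adjusted p from 8.5e-05 to 0.167. The counts behind these values were 606 to 1491 in AS tumors and 894, 143, 115 and 68 in CR tumors.

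Bad lies opposite Gpr137, a gene for an orphan receptor-like membrane protein, and they share 524 bases of exon. Gpr137 had 6.38 to 8.19 CPM in AS tumors and 5.34, 2.18, 3.18 and 1.62 CPM in CR tumors (primary CR1, metastatic CR1, primary CR2, metastatic CR2). It passed the test between phenotypes (log2 difference -1.34, SE 0.28, edgeR adjusted p = 0.0211), a call that held in 2 of the 8 fits without 1 tumor, those without primary AS1 or primary CR1, and reached an adjusted p of 0.0689 without metastatic AS1. The libraries were stranded, but the strand setting of the counting is not given, so reads of Bad and Gpr137 cannot be told apart in the shared part. Of 1433 read-length windows of the longest coding transcript of Bad, 4 (0.279%) matched another gene, 2 of them Gpr137. The part of shared reads in the level of Bad was not tested. Levels per length of the binding partners of Bad were also set against that of Bad. Bcl2 over Bad was 0.564 to 0.892 in AS and 0.674 to 2.08 in CR tumors, and Bcl2l1 over Bad was 1.08 to 1.52 in AS and 1.62 to 5.84 in CR tumors. Of 6 ratios of members computed, 5 overlapped between phenotypes (Bcl2 over Bad, Bax over Bak1, Mcl1 over Bcl2l11, Mcl1 over Pmaip1 and Bcl2 over Bcl2l11) and Bcl2l1 over Bad did not, where the levels of 18.7% of single genes did not overlap. No ratio was tested.

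**Figure D2:**
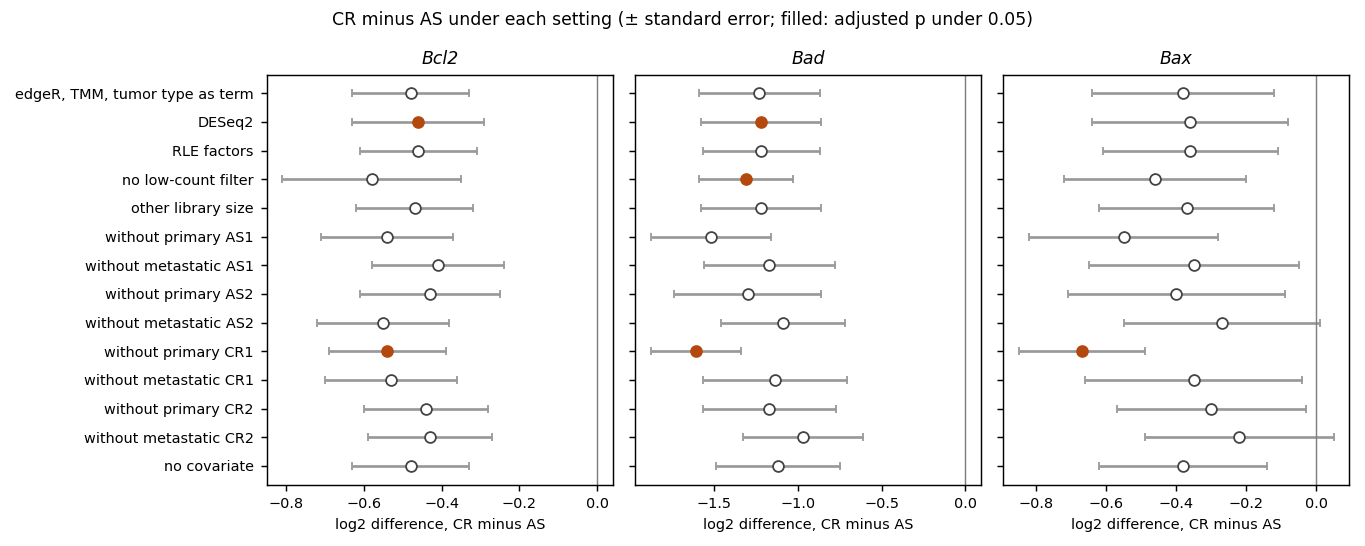
Log2 difference between CR and AS tumors (x axis) of Bcl2, Bad and Bax under each processing setting (y axis), with bars of 1 standard error and filled points where the adjusted p was under 0.05. Every estimate is negative, and leaving out primary CR1 gives -0.54 for Bcl2, -1.61 for Bad and -0.67 for Bax.

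The other BH3-only genes overlapped between phenotypes. Bcl2l11, whose product Bim binds every anti-apoptotic member, had 39, 26.1, 27.6 and 24.8 CPM in AS tumors and 18, 16.1, 38.2 and 28.7 CPM in CR tumors, in the order used above. Both CR1 tumors lay below all AS tumors, while primary CR2 was close to the highest AS tumor (log2 difference -0.19, SE 0.28, edgeR adjusted p = 0.699). Pmaip1 had 43.9, 61.8, 45.4 and 66.5 CPM in AS tumors and 72.6, 76.6, 67.1 and 38.6 CPM in CR tumors. Of the CR tumors 3 lay above every AS tumor and metastatic CR2 lay below all of them (log2 difference 0.27, SE 0.24, edgeR adjusted p = 0.496). Bbc3 was low throughout, with 1.95 to 2.29 CPM in AS and 1.71 to 3.01 CPM in CR tumors (log2 difference 0.04, SE 0.26, edgeR adjusted p = 0.929). Bid, which caspase-8 cleaves to link death receptors to mitochondria, had 8.27 to 12.6 and 7.08 to 13.6 CPM (log2 difference 0.05, SE 0.22, edgeR adjusted p = 0.907). It shares 628 bases of exon with Bcl2l13 on the opposite strand, a gene at 28.9 CPM in AS and 24.8 CPM in CR tumors (means). Of the read-length windows of its longest coding transcript, 0.0957% matched another gene. Bim and Noxa transcripts thus differed more among the CR tumors than between the phenotypes.

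**Figure D3:**
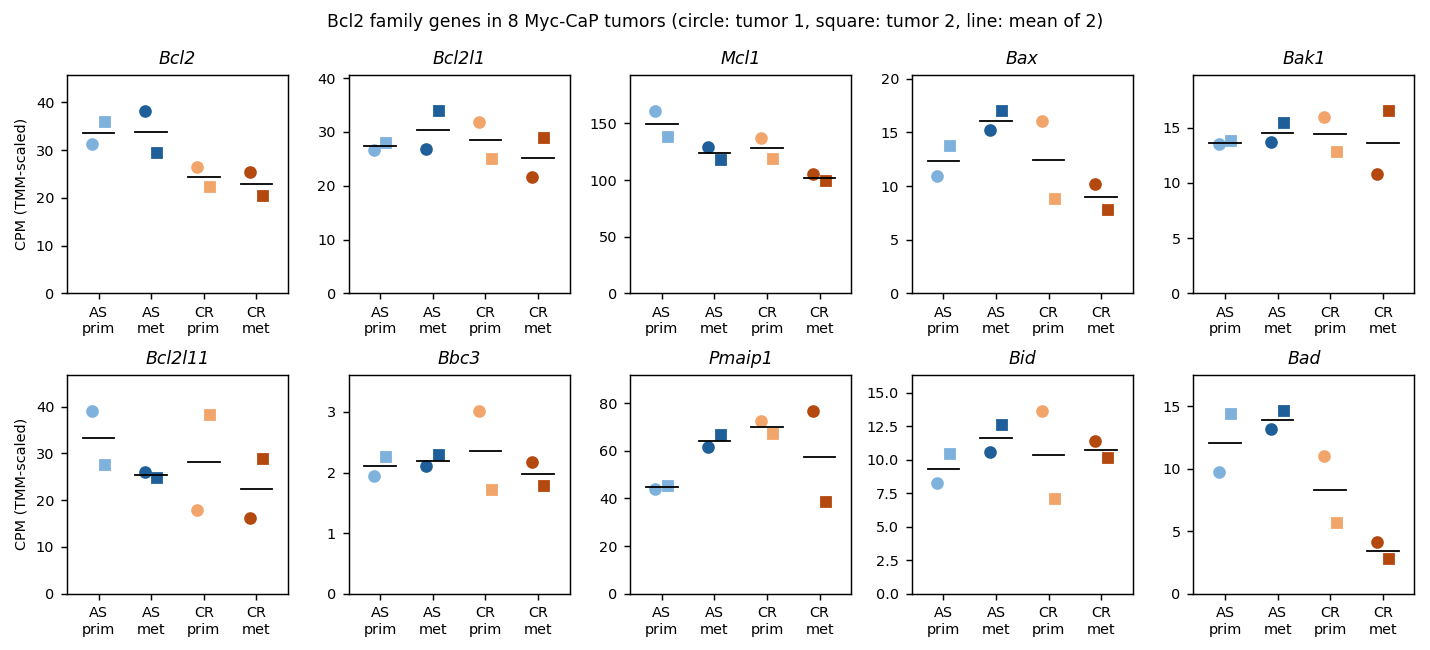
CPM of the TMM-scaled library (y axis, from 0) for each of the 10 genes in the 4 groups of 2 tumors, with circles for tumors numbered 1, squares for tumors numbered 2 and a line at the mean. Bcl2 is lower in every CR tumor (20.5 to 26.5) than in every AS tumor (29.5 to 38.2), and primary CR1 (11) is the CR tumor with the most Bad.

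Metastatic and primary tumors were compared next, over both phenotypes. Of the 10 members 0 passed the adjusted test with edgeR or with DESeq2 (0% of all genes with either), and 0 had an unadjusted p under 0.05 (2.68% of all genes). Metastatic and primary levels overlapped for all 10, while they did not overlap for 1.67% of all genes. The median log2 difference (metastatic minus primary) was 0 for the members and -0.03 for all genes, and the median absolute difference was 0.09 against 0.22. The widest estimates were those of Bcl2l11 (-0.34, SE 0.28, unadjusted p = 0.255 in the edgeR fit) and Mcl1 (-0.28, SE 0.17, unadjusted p = 0.118 in the edgeR fit), both with an edgeR adjusted p of 0.997. Bid (0.2, SE 0.23), Bad (-0.22, SE 0.52) and Pmaip1 (0.1, SE 0.26) followed, and Bcl2, Bcl2l1, Bax, Bak1 and Bbc3 lay between -0.08 and 0.03.

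Mcl1, the gene of the short-lived guard that Noxa binds, had 161, 138, 137 and 119 CPM in the primary tumors AS1, AS2, CR1 and CR2. The metastatic tumors in the same order had 129, 118, 105 and 99.5 CPM. Within each phenotype both metastatic tumors lay below both primary tumors, and Mcl1 was the only member with such an order in the same direction in both phenotypes, which 8.34% of all genes tested also had. Over both phenotypes the groups overlapped, with 139 ± 17 CPM in primary and 113 ± 13.2 CPM in metastatic tumors (SD, n = 4 each). The log2 difference of Mcl1 ranged from -0.35 to -0.22 over 17 alternatives and passed the adjusted test in none of them, with adjusted p of at least 0.7. Proliferation genes were read beside it, and 0 of the 7 listed passed the adjusted test with edgeR or DESeq2, while 2 had an unadjusted p under 0.05 with edgeR. They summed to 199 to 351 CPM in metastatic and 74.5 to 301 CPM in primary tumors, which overlap. Mki67, a marker of cycling cells, had a log2 difference of 1.29 (SE 0.32, unadjusted p = 0.00267 and adjusted p = 0.997, edgeR). Mki67 levels were 107 and 79.6 CPM in metastatic and 43.2 and 25.5 CPM in primary AS tumors. In CR tumors they were 80.4 and 139 CPM in metastatic and 66.5 and 33.9 CPM in primary tumors. Thus in each phenotype both metastatic tumors lay above both primary tumors, the reverse of Mcl1 and an order among the 8.34% given above. Top2a had this order in AS tumors (138 and 98.6 against 46.1 and 30.8 CPM). In CR tumors it did not (81.5 and 136 against 140 and 25.3 CPM). The part of these genes in the level of Mcl1 was not tested.

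**Figure D4:**
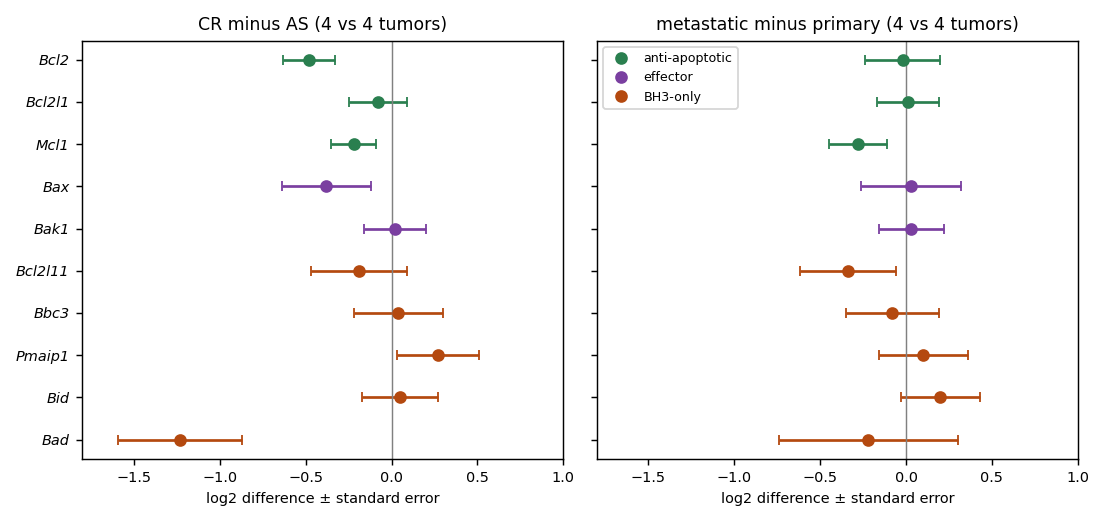
Log2 difference (x axis) with 1 standard error for each of the 10 genes between CR and AS tumors (left) and between metastatic and primary tumors (right), 4 against 4 in each, coloured by role in the family. On the left Bad (-1.23) and Bcl2 (-0.48) lie farthest below 0, and on the right the widest estimate is -0.34 for Bcl2l11.

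Within each phenotype, 2 metastatic tumors were set against 2 primary tumors in a fit of all 8 tumors with 18889 genes. In AS tumors 0 of 10 members passed (0% of all genes; DESeq2 called 11 genes and no member) and 0 had an unadjusted p under 0.05 (2.45% of all genes). In CR tumors 0 passed (0% of all genes; DESeq2 called 16 genes and no member) and 1, Bad, had an unadjusted p under 0.05 (7.74% of all genes). Bad was 3.46 ± 0.996 CPM in metastatic and 8.31 ± 3.8 CPM in primary CR tumors (SD, n = 2 each), with a log2 difference of -1.27 (SE 0.39, edgeR adjusted p = 0.625). Without a filter on low counts this difference passed (-1.35, edgeR adjusted p = 0.0477, where 1.18% of all genes passed). Between phenotypes, standard errors without this filter hardly followed the spread of each gene, so this p is read with the same limit. The metastatic and primary levels did not overlap for 5 members in AS tumors (Mcl1, Bax, Bcl2l11, Pmaip1 and Bid, against 37.2% of all genes) and for 2 in CR tumors (Mcl1 and Bad, against 30.4%). In AS tumors Bad was 13.9 ± 1.02 CPM in metastatic and 12.1 ± 3.28 CPM in primary tumors (log2 difference 0.2, SE 0.38, edgeR adjusted p = 1).

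The test of whether the metastatic difference itself differed between phenotypes gave 0 of 10 members (0% of all genes; 0 members with DESeq2, which called 2 genes), and Bad alone had an unadjusted p under 0.05 (2.74% of all genes). The interaction was -1.47 for Bad (SE 0.55, edgeR adjusted p = 0.964), -0.88 for Bax (SE 0.46) and -0.8 for Pmaip1 (SE 0.44). Without primary CR1 that of Bad was -0.91 and that of Bax -0.39. Noxa transcripts were 64.2 ± 3.33 CPM in metastatic and 44.6 ± 1.05 CPM in primary AS tumors, and 57.6 ± 26.9 and 69.9 ± 3.89 CPM in CR tumors (SD, n = 2 each). In AS tumors metastatic Pmaip1 lay above primary Pmaip1 without overlap, and the log2 difference of 0.52 (SE 0.31) did not pass (edgeR adjusted p = 1).

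The family members differed in how much they varied over the 8 tumors. The SD of log2(CPM + 1) was 0.785 for Bad, larger than that of 94.1% of all genes tested. It was 0.435 for Bcl2l11, 0.39 for Bax, 0.369 for Pmaip1, 0.305 for Bcl2, 0.277 for Bid and 0.224 for Mcl1. Bcl2l1 (0.194), Bak1 (0.182) and Bbc3 (0.176) varied least, and the median over all genes was 0.308. Bbc3 had few counts (35 to 245 per tumor), and its low CPM makes this log scale compress its spread.

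Other genes of the apoptosis pathway were read from lists of 92 genes with the members included. Among the 15 other Bcl2 family genes, 12 were tested between phenotypes, 1 was called higher in CR tumors and 0 lower, with a median log2 difference of -0.3 (all genes -0.01). The called gene was Bcl2l15, at 5 to 28 counts per tumor (1.71, SE 0.47, edgeR adjusted p = 0.0469), and the call was lost in all 8 fits without 1 tumor (adjusted p 0.0571 to 0.171) and without the low-count filter. Members of this list with an unadjusted p under 0.05 that did not pass included Bcl2l2, the gene of Bcl-w (-0.38), the BH3-only gene Bmf (-0.58) and the mitophagy receptor gene Bnip3l (0.56), which were chosen after their values were seen. Bcl2a1a, Bcl2a1b and Bcl2a1d are near-identical copies. The authors kept reads with 1 genomic location, so reads that fit more than 1 copy can be lost and these levels can be too low. Bcl2a1d, the highest of the 3, had 4.83 to 14.9 CPM.

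Downstream of the mitochondria, 13 apoptosome and caspase genes were tested and 1, Casp9, was called, lower in CR tumors. Casp9, the initiator caspase that cytochrome c and Apaf1 activate, had 9.9 to 11.3 CPM in AS and 4.25 to 6.64 CPM in CR tumors (log2 difference -0.95, SE 0.16, edgeR adjusted p = 0.0118). The call was lost without metastatic AS1 (adjusted p = 0.0539) and without metastatic AS2 (0.0506). The list's median was 0. Of the 9 inhibitor of apoptosis genes 8 were tested, 0 were called by edgeR and 0 had an unadjusted p under 0.05 (median 0.02), among them Birc5, the gene of survivin (0.85, SE 0.46, edgeR adjusted p = 0.253), and Naip6 (0.68, SE 0.44, edgeR adjusted p = 0.337), a gene of a family of close copies.

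In the death receptor pathway, which reaches the Bcl2 family through Bid, 10 of 11 genes were tested and 1 was called lower, with a median of -0.5. Tnfrsf1a, the receptor of tumor necrosis factor, had 32.6 to 46.4 CPM in AS and 17.9 to 27.6 CPM in CR tumors (log2 difference -0.92, SE 0.17, edgeR adjusted p = 0.0149). This call was lost without primary AS2 or metastatic CR1, where the larger adjusted p was 0.0554. Fas, Fasl and Tnf were low (at most 2.16, 0.245 and 0.549 CPM), and Casp8 had 12.9 to 23.5 CPM.

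The p53 pathway list held p53 targets, as Bax, Bbc3 and Pmaip1 are, and also other pathway genes such as Trp53 itself and Mdm4. Of its 16 genes, 1 was called higher and 1 lower in CR tumors (median -0.07). Eda2r, a p53-induced receptor gene, had 1.96 to 5.42 CPM in AS and 8.24 to 36.7 CPM in CR tumors (log2 difference 2.52, SE 0.38, edgeR adjusted p = 0.00796), a call that held in all 8 fits without 1 tumor. Mdm2, the gene of the ligase that degrades p53, had 33.3 to 36 CPM in AS and 18.3 to 26.9 CPM in CR tumors (-0.61, SE 0.15, edgeR adjusted p = 0.0332), and its call held in 2 of these 8 fits, those without primary CR1 or metastatic CR1. Trp53 itself had 11.5 to 15.5 CPM in AS and 8.28 to 13.4 CPM in CR tumors (-0.18, SE 0.17, edgeR adjusted p = 0.531). The p53 targets among the members did not pass, as given above.

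Genes of Mcl1 turnover, of outer membrane channels and of other partners were tested as 9 genes with 1 call (median -0.09). Vdac2, the channel that binds Bak1, had 172 to 188 CPM in AS and 110 to 143 CPM in CR tumors (log2 difference -0.55, SE 0.14, edgeR adjusted p = 0.0384). Its call held in 1 of 8 fits without 1 tumor, that without primary CR1, and was lost without the low-count filter. Among 9 regulators of BH3-only and anti-apoptotic genes 2 were called higher and 2 lower (median 0.02). Hif1a, the oxygen-responsive factor, had 95 to 137 CPM in AS and 199 to 219 CPM in CR tumors (0.88, SE 0.15, edgeR adjusted p = 0.0118), a call lost without metastatic AS1 (0.0539). Stat5a (-1.09, SE 0.24) and Stat5b (-0.77, SE 0.15), cytokine-activated factors that can induce Bcl2l1, were lower in CR tumors (edgeR adjusted p = 0.0256 and 0.0191), and their calls held in 2 and 3 of the 8 fits without 1 tumor, each time including those without primary CR1 or metastatic CR1. Foxo1, a factor known to induce Bcl2l11, was higher (1.52, SE 0.41, edgeR adjusted p = 0.0441), held only without primary CR1 among these 8 fits, and was chosen after its values were seen. It had 7.53 to 16.2 CPM in AS tumors and 11.9 CPM, inside that range, in primary CR1. Metastatic CR1, primary CR2 and metastatic CR2, the libraries with high Lars2, had 30.6, 46.4 and 28.3 CPM. The part of these library features in the level of Foxo1 was not tested. Bcl2l1 and Bcl2l11 did not pass in the same comparison.

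**Figure D5:**
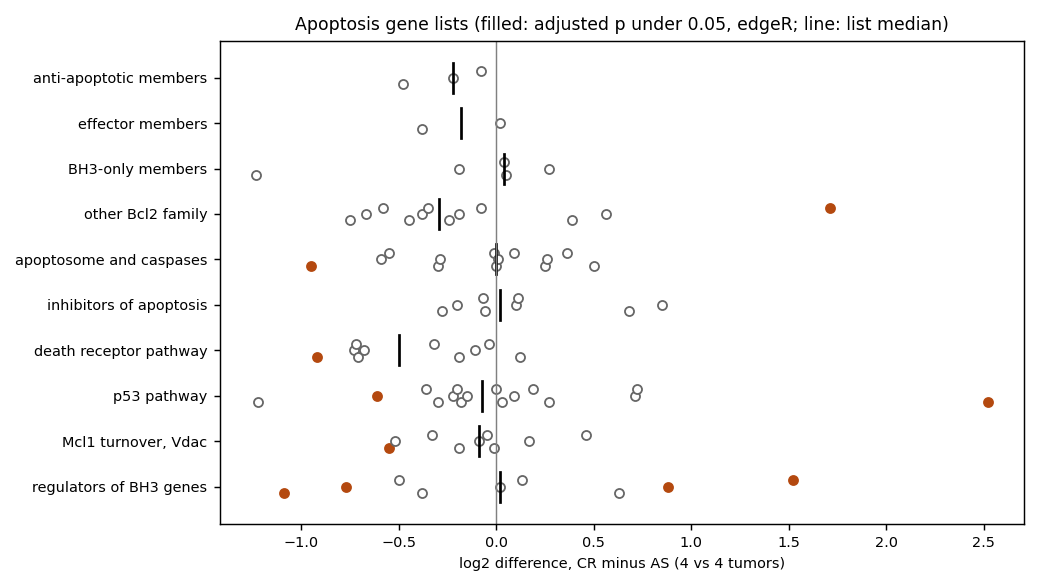
Log2 difference between CR and AS tumors (x axis) of every tested gene in 10 apoptosis lists (y axis), with filled points for an adjusted p under 0.05 (edgeR) and a black line at each list's median. List medians lie between -0.5 for the death receptor pathway and 0.04 for the BH3-only members.

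Between metastatic and primary tumors 0 genes of these lists passed the adjusted test with edgeR or DESeq2, and 0 had an unadjusted p under 0.05 with edgeR. The estimates with the smallest p in their lists included Bnip3, a hypoxia-induced BH3-like gene (log2 difference 0.62, SE 0.34), Birc5 (1.05, SE 0.52) and the death receptor gene Tnfrsf10b (0.32, SE 0.23). Eda2r (1.71, SE 0.86) and Trp53 (0.35, SE 0.19) led the p53 list, and Fbxw7, a ligase subunit that degrades Mcl1, had -0.48 (SE 0.34), all with an edgeR adjusted p of 0.997. The highest list median was 0.1, for the inhibitor of apoptosis genes, against -0.03 for all genes.

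The tested genes whose levels ran closest to those of the anti-apoptotic members over the 8 tumors were found by the root mean square distance between mean-centred log2(CPM + 1). For Bcl2 they were Dync1li2 (0.0602), Cuzd1 (0.0774) and Rnf121 (0.08), against a spread of Bcl2 itself of 0.285. For Bcl2l1 they were Foxs1 (0.0547), Ube2m (0.0624) and Mrpl51 (0.0643), against 0.181. For Mcl1 they were Mocs1 (0.0441), Usp46 (0.0593) and Ap3s2 (0.0654), against 0.209. These distances describe 8 tumors that share depth and phenotype, and 17104 genes were searched.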

How the data were processed

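Total RNA of 8 Myc-CaP tumors was depleted of ribosomal RNA for stranded, paired-end libraries. Bowtie alignment to mm10 by the authors allowed 2 mismatches and 1 genomic location, and the deposited values are raw counts per gene, not normalized. Per the labels' processing notes, CASAVA 1.8.2 and TopHat2 2.0 were also used. The counting tool, its strand setting and the annotation release are not given in the sources used here. Of 38115 gene identifiers, 36343 were found in GENCODE M21.

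The counts were fitted in edgeR 4.0.16 under R 4.3.3 (filterByExpr, TMM, quasi-likelihood test, Benjamini-Hochberg adjustment over all genes tested, threshold 0.05), with tumor type as a term between phenotypes and no covariate between tumor types. A fit with 1 mean per group gave differences within phenotypes and their interaction. DESeq2 1.42.0, RLE factors, library sizes without the 10 most counted and the mitochondrial genes, no low-count filter, other covariates, the 4 possible pairings and each tumor left out were alternatives. A level (CPM) is a count divided by the TMM-scaled library size and brought to a common total. Total counts were 20905806 to 91886163 per tumor, and counting error is larger for members with few counts (Bbc3 35 to 245, Bad 68 to 1491). The fits were tested on simulated counts. Read-length windows of the members' transcripts were matched to all transcripts with bwa 0.7.19, and figures drawn with matplotlib 3.10.9.

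Members and lists were chosen with earlier results of these data known. All members were named, and from each other list at most 3 called genes, or up to 2 by smallest p where none was called. Other genes are said to have been chosen after their values were seen. Some genes covered by the rule are not reported here.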

Additional observations from a re-analysis of the deposited data

Results flagged for a closer look

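Bak1 in the AS tumors was flagged because 1 tumor lay far from the other 3: metastatic AS2 had 15.4 CPM, against 13.5 to 13.8 CPM in the others, a gap of 0.844 of the group's range (above Dixon's critical value for 4 samples). Of 40 groups of 4 tumors examined this was the 1 flagged, and chance flags about 1 in 20. In the CR tumors Bak1 ranged from 10.8 to 16.5 CPM, so this value lies inside the range of the CR tumors.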

How the results depend on the processing

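Bcl2, Mcl1, Bax, Pmaip1 and Bad kept the sign of their difference between phenotypes in all 13 alternatives. DESeq2 called 3544 genes and 2 members between phenotypes, and the fit without a low-count filter called 1 member. Standard errors between phenotypes without that filter hardly followed the spread of each gene, as given for Bad. With 1 tumor left out the number of genes ranged from 481 to 4133 and of members from 0 to 3. Within AS tumors DESeq2 called 11 genes and the fit without the filter 179. Within CR tumors these were 16 and 375, with 1 member without the filter, and 0 to 235 genes with 1 tumor left out, 235 without primary CR2. The interaction gave 2 with DESeq2, 217 without the filter and 0 to 82 with 1 tumor left out, 82 without primary CR2. Estimates near 0 changed sign without the filter: Bak1 -0.08, Bbc3 -0.04 and Bid -0.04 between phenotypes, and Bcl2l1 -0.04, Bax -0.01 and Bak1 -0.03 between tumor types, where Bax was -0.02 with phenotype as a covariate. The cause of these changes was not tested. With 1 tumor left out, estimates between phenotypes ranged from -0.18 to 0.04 for Bcl2l1, -0.1 to 0.16 for Bak1, -0.42 to 0 for Bcl2l11, -0.17 to 0.16 for Bbc3 and -0.19 to 0.19 for Bid. Between tumor types they ranged from -0.19 to 0.12 for Bcl2, -0.09 to 0.13 for Bcl2l1, -0.15 to 0.19 for Bax, -0.07 to 0.15 for Bak1, -0.16 to 0.09 for Bbc3, -0.02 to 0.26 for Pmaip1 and -0.59 to 0.07 for Bad, and within AS tumors from -0.05 to 0.54 for Bad.

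Because the labels do not tie a metastasis to its primary tumor, all 4 possible pairings were fitted as a replicate block, 1 at a time. In all 4 fits 0 members passed, and the difference of Mcl1 was -0.28 with an edgeR adjusted p from 0.7 to 0.889. Which pairing is true was not read from the values.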
